A study of Mus musculus with 2 samples.

Results

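The cells described are 1184 gated neutrophils among 13977 filtered cells from mouse prostate, 379 of 6209 in a library of normal tissue adjacent to tumour and 805 of 7768 in a library of tumour tissue. They were chosen by what their own transcripts held. A cell was kept if S100a8 and S100a9 together made up at least 0.5% of its UMIs (unique molecular identifiers, which count captured RNA molecules), if it held at least 1 UMI of Csf3r, Mmp9, G0s2, Il1r2 or Hdc, if it held at most 2 UMIs of C1qa, C1qb and C1qc, and if it held 0 of Cd3d, Cd3e and Cd3g and 0 of Cd79a. The 7 genes that admitted cells and the 7 that kept cells out are therefore given only as a description.

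Neutrophils are short-lived granulocytes of the innate immune system that are made in the bone marrow and reach inflamed tissue and tumours from the blood. S100a8 and S100a9 encode the subunits of calprotectin, a calcium-binding and metal-chelating protein that fills the neutrophil cytosol and is released at sites of inflammation. In tissue, neutrophils kill microbes with granule proteins and reactive oxygen, secrete chemokines and interleukin-1, and answer interferon, and in tumours they have been described both as restraining and as favouring growth.

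For each library, tissue was treated with 1 mg/ml collagenase (45 min) and then trypsin (5 min), strained at 40 µm and sorted, and the CD45+ leukocytes and the CD45- cells went into the same droplet channel. There was 1 library per group, and strain, genotype, age, tumour model and number of animals were not given in the sources used here. No test between the groups was possible, so each difference sets 1 library against 1 other. The 95% intervals, in parentheses, measure counting error and not variation between animals. In each pair of values the adjacent library comes first, and levels are CPM, counts per 1000000 UMIs (a gene's UMIs over the total of the gated cells of a library).

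The deposited matrices held 6553 and 8237 barcodes with 77855775 and 92188538 UMIs over 32285 mouse genes. The libraries shared 18 barcode sequences, of which none was gated in both. The gated cells were shallow, with medians of 2722 and 2180 UMIs and 898 and 796 genes per cell, against 6895.5 and 7901 UMIs in all other filtered cells. They gave 1099827 and 1969656 UMIs in all. Mitochondrial transcripts made up a median of 0.342% and 0.524% of their UMIs. Ptprc, which encodes CD45, was detected in 75.7% and 76.3% of them.

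The calprotectin share passed 832 and 1662 filtered cells, and the second neutrophil gene kept 822 and 1655 of these. The limits on macrophage complement genes, T cell receptor complex genes and the B cell gene Cd79a then left 379 and 805, which is 46.1% (42.7 to 49.6) and 48.6% (46.2 to 51.1) of the cells that had passed the first 2 conditions. The 443 and 850 cells refused at those limits had medians of 7175 and 7504.5 UMIs, far above the gated cells, and stay among the other filtered cells. The C1q limit, applied first, brought 822 and 1655 cells to 474 and 905. The plot of calprotectin share against UMIs per cell shows the gated cells at the shallow end of the calprotectin-rich cells.

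**Figure D1:**
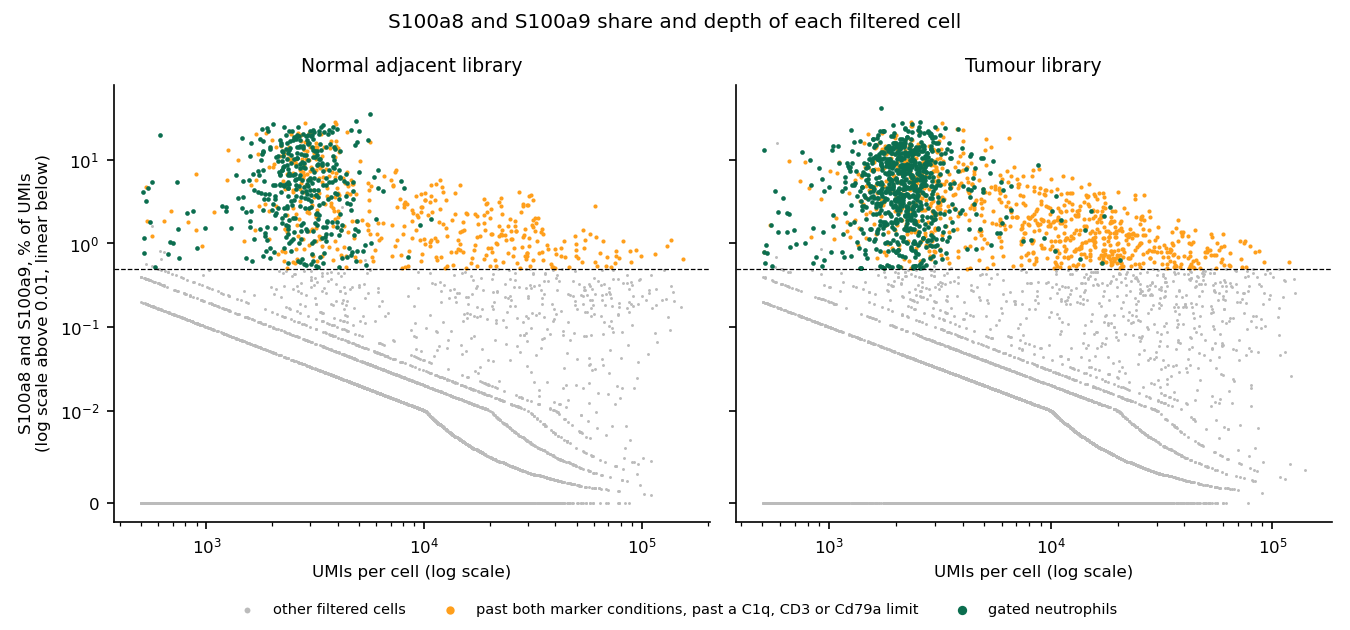
UMIs per cell (log axis) against the share of S100a8 and S100a9 UMIs in percent (log axis above 0.01, linear below), 1 panel per library and 1 point per filtered cell. The dashed line marks the 0.5% limit. Gated cells (379 and 805, green) have medians of 2722 and 2180 UMIs, and the cells that pass calprotectin but fail a C1q, CD3 or Cd79a limit (443 and 850, orange) reach to far higher UMIs.

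Within the gate the calprotectin share ran from 0.515% to 35.7% with a median of 5.00% in the adjacent library, and from 0.504% to 41.5% with a median of 4.76% in the tumour library. The nearest cells outside the limit held 0.485% and 0.496%. Between 0.5% and 1% lay 40 and 81 gated cells. Another 23 and 61 cells that met the other conditions lay just outside, between 0.25% and 0.5%. The 5 second genes summed to a median of 20 UMIs per cell in both libraries, and only 7 and 9 cells were admitted on 1 UMI. Reference B cells, defined by at least 3 UMIs of Cd79a with 0 of CD3 and at most 2 of C1q, serve as a type that should lack neutrophil transcripts. Their median calprotectin share was 0, and 0 of 218 (which allows a share of up to 1.38%) and 3 of 155 of them reached 0.5%.

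The label was checked on genes the gate did not use. Neutrophil genes stood at the top of the list: of the 15 genes with the highest gated level relative to other filtered cells, Retnlg (a resistin-like secreted protein) was at 1608 and 1518 CPM, 53.5 and 24.5 times the level of other cells. Slpi, a secreted inhibitor of neutrophil elastase, was at 3471 and 3139 CPM, or 26.2 and 19.5 times. Cxcr2, the receptor through which neutrophils follow CXC chemokines, was at 166 and 205 CPM, or 21.5 and 16.3 times. The other 12 were Mrgpra2b, Asprv1, Cstdc4, Il1f9, Mirt2, Stfa2l1, Wfdc21, Acod1, Trem1, Clec4d, Ptgs2os2 and Trem3, which lay between 16.04 and 41.9 times. The list of neutrophil identity genes outside the gate has 20 members, of which 19 had at least 50 UMIs in gated cells. Of these 19, 19 were at least 1.5-fold and 14 at least 10-fold above other cells in both libraries. Among all 4312 genes with at least 50 UMIs in gated cells, 24.1% were past 1.5-fold and 2.23% past 10-fold. Because the gate chose these cells, these ratios describe them and test nothing.

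**Figure D2:**
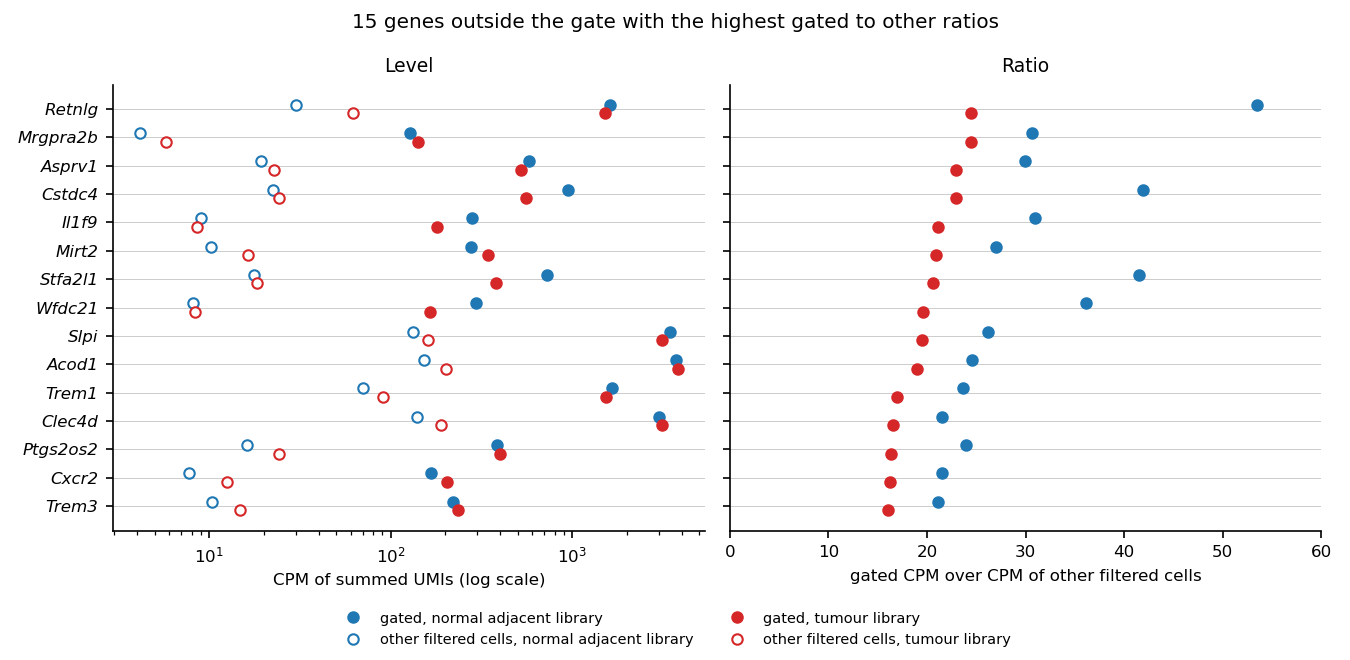
Left, CPM (log axis) of the 15 genes that most separated gated cells from other filtered cells in each library, filled symbols for gated and open symbols for other cells. Right, gated over other cells in each library (linear axis). All 15 lie between 16.04 and 53.5 times the other cells' level, and the ratio is larger in the adjacent library for each.

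Transcripts of early marrow stages were nearly absent. Of the granule genes made in promyelocytes and myelocytes, myeloperoxidase (Mpo) had 2 and 1 UMIs, elastase (Elane) 0 and 0, cathepsin G (Ctsg) 0 and 0 and cathelicidin (Camp) 0 and 3. Of later granule genes, lactoferrin (Ltf) was at 45.5 and 37.1 CPM and collagenase Mmp8 at 56.4 and 32.0 CPM. Ly6g, the surface protein by which mouse neutrophils are usually sorted, was low at 31.8 and 13.7 CPM (35 and 27 UMIs), though 29.1 times its level in other cells of the tumour library. The most abundant RNAs were ferritin heavy chain Fth1 (4.69% and 4.35% of UMIs), S100a9 (4.14% and 3.61%), the neutrophil chemoattractant Cxcl2 (3.50% and 2.72%) and S100a8 (3.18% and 2.66%). Interleukin-1 beta (Il1b) made up 1.04% and 0.984%. Of the genes used by the gate, Csf3r (the receptor for granulocyte colony-stimulating factor) was at 550.1 and 558 CPM and Mmp9 (gelatinase B) at 649 and 652 CPM, nearly level between the libraries.

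Markers of other cell types were not all absent. Macrophage genes summed to 1085 and 1229.7 CPM in gated cells, close to the 977 and 815 CPM of reference B cells and far under the 9927 and 12755 CPM of other filtered cells. Most of that sum was Apoe, at 898 and 964 CPM. B and plasma cell genes summed to 110.0 CPM in the adjacent and 745 CPM in the tumour library. Epithelial genes gave 144 and 316 CPM, fibroblast genes 14.5 and 265, dendritic cell genes 31.8 and 150.3, and monocyte genes 90.0 and 173. T and NK cell genes gave 152 and 119 CPM, mast cell and basophil genes 72.7 and 107. Eosinophil genes, the nearest granulocyte relatives, gave only 8.18 and 6.60 CPM. Endothelial genes gave 7.27 and 3.05 CPM, and red cell and platelet genes 11.8 and 8.63. In the tumour library 1 cell held 48.1% of the fibroblast UMIs, 1 held 33.3% of the epithelial UMIs and 1 held 87.2% of the mast cell and basophil UMIs.

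Gated neutrophils were a larger part of the tumour library. They made up 6.10% (5.52 to 6.73) of filtered cells in adjacent tissue and 10.4% (9.69 to 11.1) in tumour, a difference of 4.26 percentage points (3.35 to 5.16). Sorting and loading set the ratio of CD45+ to CD45- cells, so the share of immune cells was also taken: 377 of 5772 (6.53%) against 801 of 7107 (11.3%), a difference of 4.74 points (3.76 to 5.71). Without the C1q, CD3 and Cd79a limits the shares were 13.2% and 21.3%. With cells carrying at least 3 UMIs of any other lineage left out, 183 and 327 gated cells were left, and the difference among filtered cells was 1.26 points (0.64 to 1.87). At least 3 UMIs of the macrophage list were held by 48.0% and 45.1% of gated cells. For the B and plasma cell list it was 1.06% and 23.6%, so that list removed cells unequally between the libraries.

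The comparison of the libraries covers 4312 genes with at least 50 UMIs in gated cells. A ratio of tumour to adjacent CPM of at least 1.5 was found for 374 genes (8.67%), and 192 (4.45%) were at least 1.5-fold lower in tumour. The median log2 ratio was 0.06, and 58.2% of genes had a ratio over 1 and 41.8% a ratio under 1. Of the 374 higher genes, 68 had at least 20% of their tumour UMIs in 1 cell, while 19 of the 192 lower genes had as much of their adjacent UMIs in 1 cell. Leaving out the 5% of cells with the most UMIs gave 183 higher and 197 lower genes. Leaving out cells with 3 or more UMIs of another lineage gave 175 and 137, and thinning every cell to 1000 UMIs gave 143 and 104. Centring on the median gene moved the split to 303 higher and 245 lower.

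Wfdc17, a whey acidic protein of myeloid cells, was at 2105 (2020 to 2192) CPM in adjacent and 629.6 (595 to 666) in tumour, 3.34-fold lower (3.12 to 3.59). In all other filtered cells the tumour to adjacent ratio of Wfdc17 was 0.982, and with the C1q, CD3 and Cd79a limits lifted its log2 ratio was -0.74 in place of -1.74. Ifitm1, an interferon-induced membrane protein that restricts virus entry, was at 2439 and 1021 CPM, 2.39-fold lower (2.25 to 2.53). The stefin A genes, a mouse cluster of cytosolic inhibitors of cysteine cathepsins, were lower as a family. Their 10 members summed to 1943 CPM (1862 to 2027) in adjacent and 1004 (960.5 to 1049) in tumour neutrophils, 1.93-fold lower (1.82 to 2.06). The same sum was 338 and 302 CPM in the calprotectin-rich cells that failed a limit, and 48.2 and 49.3 CPM in all other filtered cells. Reference B cells held 3.12 and 46.0 CPM, higher in the tumour library.

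The promoters of 4 stefin A genes are shown because these genes were lower together in tumour and lie close together on chromosome 16. The sequences come from RefSeq on build GRCm38.p6, all on the + strand, from 250 bases before to 50 bases after each gene's start, and capitals mark each match to GAGGAA or its reverse complement TTCCTC, the core that ETS factors such as PU.1 bind. They lie at chr16:36156561-36156860 (Stfa2l1), chr16:36183962-36184261 (Cstdc4), chr16:36210153-36210452 (Csta3) and chr16:36276898-36277197 (Stfa1).
Stfa2l1: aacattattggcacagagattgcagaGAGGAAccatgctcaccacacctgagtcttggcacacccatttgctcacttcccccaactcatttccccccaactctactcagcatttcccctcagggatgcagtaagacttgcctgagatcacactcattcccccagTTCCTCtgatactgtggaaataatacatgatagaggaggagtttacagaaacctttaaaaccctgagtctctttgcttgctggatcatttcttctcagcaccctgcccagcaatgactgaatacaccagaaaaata
Cstdc4: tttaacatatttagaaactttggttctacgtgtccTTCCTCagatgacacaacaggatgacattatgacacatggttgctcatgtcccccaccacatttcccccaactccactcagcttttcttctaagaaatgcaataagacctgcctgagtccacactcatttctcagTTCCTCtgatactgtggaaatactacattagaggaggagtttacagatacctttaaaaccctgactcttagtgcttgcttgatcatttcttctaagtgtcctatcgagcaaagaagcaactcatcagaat
Csta3: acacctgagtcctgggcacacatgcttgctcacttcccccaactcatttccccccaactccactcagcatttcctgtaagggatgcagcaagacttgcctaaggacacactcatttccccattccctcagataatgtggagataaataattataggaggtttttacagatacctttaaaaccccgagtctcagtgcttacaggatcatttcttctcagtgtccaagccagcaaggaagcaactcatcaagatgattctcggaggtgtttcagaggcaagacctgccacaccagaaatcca
Stfa1: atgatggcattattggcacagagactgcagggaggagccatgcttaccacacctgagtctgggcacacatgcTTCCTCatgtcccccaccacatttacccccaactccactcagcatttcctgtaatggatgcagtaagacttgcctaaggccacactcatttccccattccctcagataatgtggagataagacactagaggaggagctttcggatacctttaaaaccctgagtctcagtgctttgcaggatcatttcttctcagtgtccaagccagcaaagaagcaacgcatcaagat

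GAGGAA was found 2 times in the Stfa2l1 and Cstdc4 windows, 1 time in that of Stfa1 and 0 times in that of Csta3, and 28.3% of 32851 mouse promoters of the same length held it on either strand. TTGCNNAA, a C/EBP core, was found 1 time each in Csta3 and Stfa1 and in 10.8% of promoters. TGACTCA, the AP-1 motif, was in none of the 4 and in 5.20% of promoters. A match is a description of letters and not a binding site. The 4 windows were 60.1% to 79.2% identical in pairs, highest between Stfa2l1 and Stfa1. Members of the family are close paralogs whose transcripts may share reads, so the split between members is uncertain and the family sum is the safer value.

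Stfa2l1 was at 728 CPM in adjacent and 379 in tumour neutrophils, 1.92-fold lower (1.74 to 2.12). Cstdc4 was at 944 and 555 CPM, 1.70-fold lower (1.56 to 1.85). Csta3 was at 83.6 and 21.8 CPM, 3.83-fold lower (2.64 to 5.64), and Stfa1 at 107 and 32.5 CPM, 3.30-fold lower (2.42 to 4.55). With the limits lifted these last 2 had log2 ratios of -1.22 and -0.67, and with 0 UMIs of C1q required -3.33 and -3.27. All 4 of these members were lower in tumour. Of the 10 in the family sum, Stfa2 (40 and 7 UMIs) and Csta2 (31 and 3) were too sparse to compare. Values of the remaining members are not reported here. With every cell thinned to 1000 UMIs, which left out 19 and 30 shallower cells, Stfa2l1 was detected in 25.6% and 19.4% of gated cells (35.4% and 24.8% unthinned) and in 0 of 217 (which allows up to 1.38%) and 0.649% of reference B cells, whose median depth was 4821.5 and 5064 UMIs. Cstdc4 was detected in 28.6% and 18.2% after thinning (34.8% and 23.0% unthinned) and in 0% and 1.30% of B cells. At equal depth, fewer tumour neutrophils held a UMI of these genes.

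The same held for Wfdc17 and Ifitm1. Wfdc17 was detected in 47.5% of adjacent and 22.8% of tumour neutrophils at 1000 UMIs (57.0% and 33.9% unthinned), against 6.45% and 2.60% of B cells. Ifitm1 was detected in 58.1% and 38.1% (71.2% and 51.4% unthinned), against 1.38% and 1.95% of B cells. Neither rested on a few cells, since no adjacent cell held more than 3.11% of the Wfdc17 UMIs or 2.95% of the Ifitm1 UMIs.

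By the fixed rule, 12 genes lead those lower in tumour. Beside Wfdc17, Ifitm1, Stfa2l1, Csta3 and Stfa1 they include Tnf (tumour necrosis factor), Prok2 (prokineticin 2, a chemotactic peptide of granulocytes), Itpr2 (a calcium channel of the endoplasmic reticulum), Upp1 (uridine phosphorylase 1), Plau (urokinase), Gadd45g (a stress-response protein) and Hist1h1c (a linker histone). Tnf was at 569 (525 to 616) and 217 (197 to 238) CPM, 2.63-fold lower (2.32 to 2.98). Among cells with a calprotectin share of at least 2% its log2 ratio was -0.24, against -1.39 in all gated cells. Upp1 was at 321 and 138 CPM, 2.33-fold lower (1.99 to 2.74), and Gadd45g at 427 and 199, 2.15-fold lower (1.88 to 2.47). Plau was at 72.7 and 30.5 CPM and Hist1h1c at 149 and 69.6. Lifting the limits brought the log2 ratios of Gadd45g, Plau and Hist1h1c to -0.46, -0.57 and -0.35. Prok2, at 265 and 49.8 CPM, was 5.32-fold lower (4.22 to 6.76), but 1 adjacent cell held 56.7% of its UMIs, and without the top cell of each library it was 3.34-fold lower. Itpr2, at 400.1 and 138 CPM, had 25.2% of its adjacent UMIs in 1 cell. With the C1q, CD3 and Cd79a limits lifted, the log2 ratio of Prok2 was 0.22 and that of Itpr2 -0.10. Without their top cells all 12 were still past 1.5-fold, which their choice for low ratios in these same cells made likely. Among the cells that failed a limit, 10 of 12 had a ratio under 1. The share of all tested genes under 1 in those cells is not given here, so that count has no baseline. Prok2 went the other way there, at 16.7 CPM in adjacent and 60.9 in tumour, a ratio of 3.66.

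**Figure D3:**
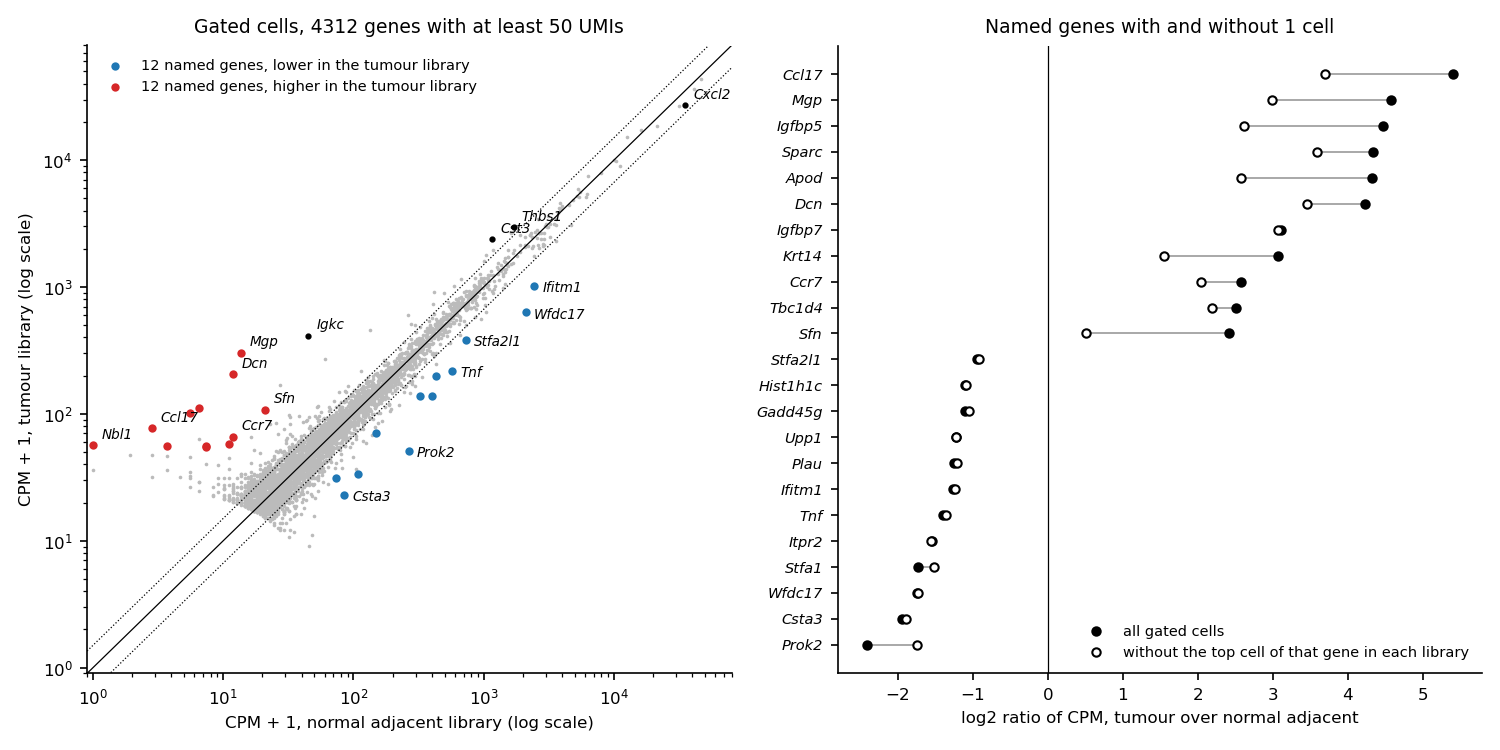
Left, CPM plus 1 (log axes) in gated cells of the adjacent against the tumour library for 4312 genes, with dotted lines at 1.5-fold and the 12 genes named each way in colour. Right, log2 ratio of tumour to adjacent for the named genes with all cells and with each gene's top cell in each library left out (Nbl1, at 0 UMIs in the adjacent library, is not drawn). The lower genes move little when the top cell is left out, apart from Prok2, while most of the higher genes move toward 0.

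The 12 genes that lead the higher side are mostly known from other cell types. They are the matrix and stromal genes Mgp, Dcn, Sparc, Igfbp5, Igfbp7, Apod and Nbl1, the basal epithelial genes Krt14 and Sfn, and Ccl17, Ccr7 and Tbc1d4, of which Ccl17 and Ccr7 are known from migratory dendritic cells. Mgp had 14 UMIs in adjacent and 595 in tumour neutrophils, and Dcn 12 and 402. A single tumour cell held between 30.6% and 87.2% of the tumour UMIs of each of the 12 genes, with a median of 72.2%. For the 7 stromal genes it was the same cell, of 11110 UMIs and a calprotectin share of 1.92%. For Krt14 and Sfn it was a cell of 18466 UMIs. Except for Ccl17 and Nbl1, these levels were below those of other cells of the same library, such as Mgp at 302 CPM in gated and 418 in other cells of the tumour library. Without their top cells, 11 of the 12 still had a ratio of at least 1.5, all but Sfn. The 12 were picked for high ratios, and Mgp and Dcn could pass the UMI minimum only with tumour UMIs. That count was therefore largely set by the choice of genes. Across 15 alternative settings only Mgp, Sparc, Igfbp5, Apod and Nbl1 stayed past 1.5-fold throughout. With 0 UMIs of C1q required, the log2 ratio was 0.32 for Dcn and -1.88 for Ccl17. Without the 5% of cells with the most UMIs, Ccr7 had a log2 ratio of -1.70 and Krt14, Sfn, Ccl17 and Tbc1d4 were below 1.5-fold. Whether RNA of other cells accounts for these UMIs was not tested.

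Among transcripts that gated cells held above other cells, Thbs1 was higher in tumour. Thrombospondin 1 is a matrix glycoprotein that restrains vessel growth, and the gene was picked after its values were seen. It was at 1694 (1618 to 1773) CPM in adjacent and 2955 (2879.9 to 3032) in tumour neutrophils, 1.74-fold higher (1.66 to 1.84). Other filtered cells had 202 and 334 CPM, a ratio of 1.66. At 1000 UMIs it was detected in 50.8% and 68.3% of gated cells (62.5% and 75.2% unthinned) and in 1.84% and 4.55% of B cells. Egr3, an immediate early transcription factor also picked after the fact, was at 90.0 and 163 CPM, 1.82-fold higher (1.45 to 2.30). Itgal, the alpha chain of the leukocyte integrin LFA-1, was at 127 and 194 CPM, 1.52-fold higher (1.25 to 1.86). Cebpb, a transcription factor that drives emergency granulopoiesis, was 1.19-fold higher (1.16 to 1.23) at 6312 and 7523 CPM, short of 1.5-fold.

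Functional lists give the rest of the programme, and which members are named was decided after their values were seen. The counts are to be read against all tested genes, of which 58.2% had a ratio over 1, 8.67% were past 1.5-fold higher and 4.45% past 1.5-fold lower, with a median log2 ratio of 0.06. Of 19 tested neutrophil identity genes, 8 had a ratio over 1 and 11 under 1, with a median log2 ratio of -0.11. 6 of the 19 were at least 1.5-fold lower and 0 at least 1.5-fold higher. The 6 were Stfa2l1, Ifitm1, Wfdc21 (another whey acidic protein, 294 and 164 CPM), Il1f9 (interleukin-36 gamma, 279 and 179.7 CPM), Mmp8 and Ly6g. Of these, Mmp8 was within 1.5-fold once the top cell of each library was left out, and Ly6g rested on few UMIs. The list median was 0.05 without cells carrying another lineage and 0.11 with the limits lifted. Of the other members, Hcar2, a receptor for ketone bodies and niacin, was 1.41-fold lower (1.34 to 1.48). Near level were Clec4d (a C-type lectin receptor, 2994 and 3134 CPM), Trem1 (an amplifier of inflammatory signals, 1665 and 1540.4) and Mxd1 (an antagonist of Myc, 1511 and 1537).

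**Figure D4:**
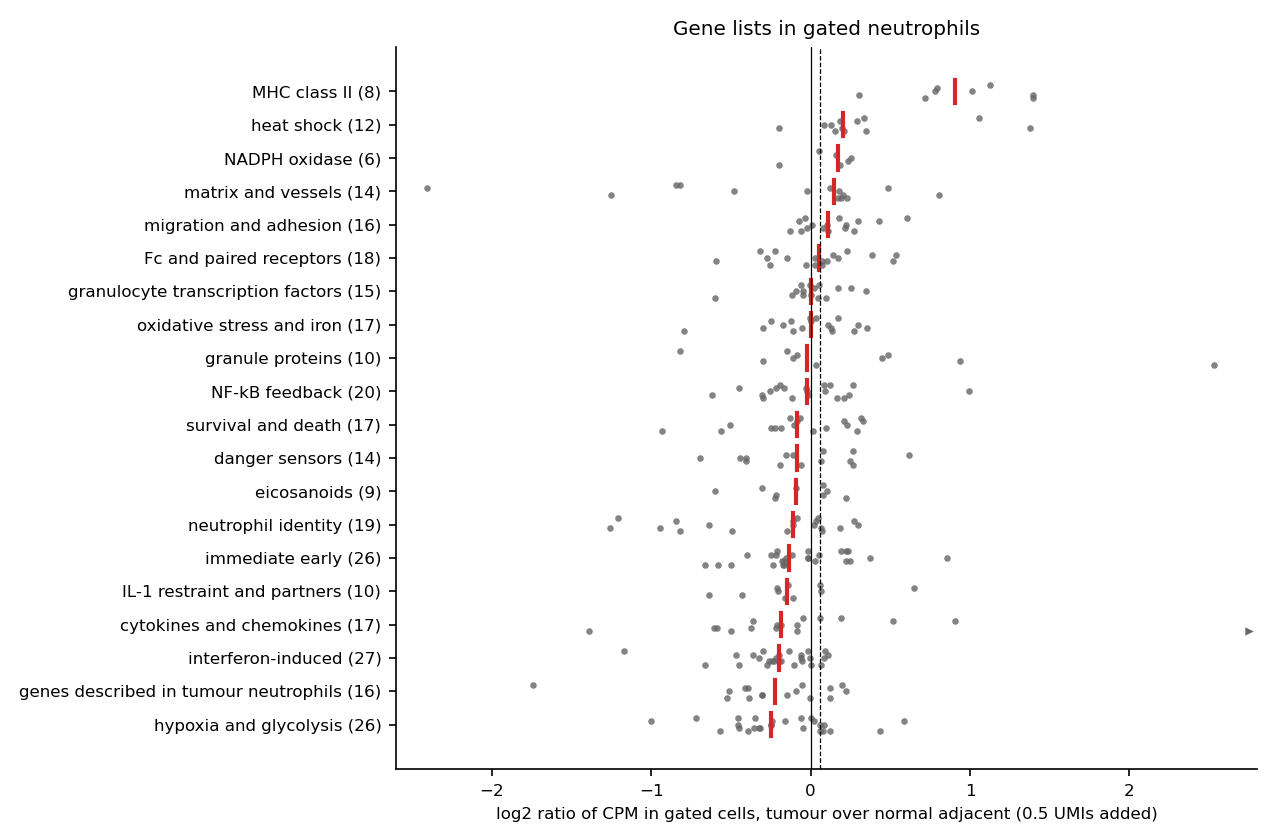
Log2 ratio of tumour to adjacent CPM in gated cells for each tested member (dots) of 20 gene lists, with the number tested in parentheses, the list median as a red bar and the median of all 4312 genes, 0.06, as a dashed line. An arrow marks Il12b in the cytokine list, beyond the axis. Only the MHC class II list, with a median of 0.90, lies away from the others, whose medians run from -0.25 to 0.20.

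Of 17 tested cytokines and chemokines, 3 were at least 1.5-fold lower in tumour and 2 at least 1.5-fold higher. A ratio over 1 was seen for 5 (7 without the cell that held most UMIs of each gene in each library) and under 1 for 12, with a median of -0.18. The list median was 0.04 among cells with at least 2% calprotectin and 0.08 with the limits lifted. Tnf, Il1a and Ccl3 were the members past 1.5-fold lower. Il1a, interleukin-1 alpha, was at 546 and 359 CPM, 1.52-fold lower (1.36 to 1.70), with a log2 ratio of 0.02 among cells with at least 2% calprotectin, and stayed past 1.5-fold in 4 of 15 alternative settings of the gate, the cells and the scaling. Ccl3, a chemokine for monocytes and neutrophils, was at 4643 and 3091 CPM, 1.502-fold lower (1.45 to 1.56), and stayed past 1.5-fold in 3 of 15 alternatives, with a log2 ratio as near 0 as -0.095. Cxcl2 was 1.29-fold lower (1.27 to 1.30) at 34961 and 27186 CPM, and it was detected in 98.6% and 98.8% of cells at 1000 UMIs (99.7% and 99.8% unthinned) and in 17.1% and 12.99% of B cells. Il1b, at 10429.8 and 9844 CPM, differed by less, 1.06-fold lower (1.04 to 1.08). The 2 members past 1.5-fold higher were Il12b, with 0 and 69 UMIs, and Ccl5, where 1 tumour cell held 57.3% of the UMIs. Without the top cell of each library the ratio of Ccl5 was 0.864, below 1. Osm (oncostatin M) was at 497 and 569 CPM and Il23a, a subunit of interleukin-23, at 65.5 and 93.9. Among 10 genes that restrain or partner interleukin-1, 3 had a ratio over 1 and the median was -0.15. Il1rn, the receptor antagonist, was at 2335 and 2017 CPM, 1.16-fold lower (1.10 to 1.22).

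Signalling and stress genes were close to level as lists. Of 20 NF-kB targets and feedback genes, 8 had a ratio over 1, with a median of -0.02. Nfkbia, which encodes the inhibitor IkB alpha, was at 3559.6 and 2321 CPM, 1.53-fold lower (1.47 to 1.60). It stayed past 1.5-fold in 6 of 15 alternatives, with a log2 ratio as near 0 as -0.27, while the NF-kB subunit Nfkb1 was at 616 and 742 CPM, 1.20-fold higher (1.10 to 1.32). Of 26 immediate early genes, 9 had a ratio over 1 with a median of -0.13. They did not move as 1 group: Jun was 1.58-fold lower (1.43 to 1.75) and the Kruppel-like factor Klf6 1.41-fold lower (1.30 to 1.53), whereas Egr3 and the orphan receptor Nr4a1 (582 and 752 CPM, 1.29-fold higher (1.18 to 1.42)) were higher. Of 12 heat shock genes, 11 had a ratio over 1, with a median of 0.20 that was -0.28 with the limits lifted. Hspa8, a constitutive HSP70 chaperone, was at 612 and 748 CPM and Hsp90ab1 at 388 and 489.9. Of 17 survival and death genes, 7 had a ratio over 1 with a median of -0.09. The anti-apoptotic Mcl1, on which neutrophils depend, was at 3082 and 2947 CPM, and Ddit3 (the stress factor CHOP) at 222 and 116, 1.91-fold lower (1.59 to 2.30), though with 0 UMIs of C1q required its log2 ratio was 0.06.

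Sensing, adhesion and killing genes differed little as lists. Of 16 migration and adhesion genes, 11 had a ratio over 1 with a median of 0.11. Ccr1, a receptor for Ccl3, was at 1508 and 1488 CPM, and Cxcr4, the marrow retention receptor, at 526 and 515. Of 6 tested subunits and partners of the NADPH oxidase, which makes the respiratory burst, 5 had a ratio over 1 with a median of 0.17. Its membrane subunit Cybb was at 96.4 and 114 CPM. Of 14 danger sensors, 6 had a ratio over 1 with a median of -0.09. The lectin Clec4e (Mincle) was 1.36-fold lower (1.30 to 1.42) and the inflammasome sensor Nlrp3 1.32-fold lower (1.26 to 1.39), while Tlr2 was 1.21-fold higher (1.08 to 1.35). Of 18 Fc and paired immune receptors, 11 had a ratio over 1 with a median of 0.05. The adaptor Fcer1g was at 3211 and 3149.8 CPM. Of 10 granule genes, 5 had a ratio over 1 with a median of -0.02, and none of the early ones could be compared.

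Of 16 tested genes described in tumour-associated neutrophils, 1 (Wfdc17) was at least 1.5-fold lower in the tumour library and 0 at least 1.5-fold higher. A ratio over 1 was seen for 5, with a median log2 ratio of -0.22. Cd274, which encodes the checkpoint ligand PD-L1, was at 427 (389.6 to 468) CPM in adjacent and 300.1 (276 to 325) in tumour, 1.42-fold lower (1.26 to 1.61). Spp1 (osteopontin) was at 1407 and 978 CPM, 1.44-fold lower (1.35 to 1.54), and Arg2, a mitochondrial arginase, at 703 and 539, 1.30-fold lower (1.19 to 1.43). Siglecf, a sialic acid receptor of eosinophils and of neutrophils in lung tumours, was at 62.7 and 47.2 CPM. Slc7a11, the cystine transporter, was high and level at 3596 and 3461 CPM. Of 26 tested hypoxia and glycolysis genes, 9 had a ratio over 1, with a median of -0.25. Hilpda, a lipid droplet protein induced by hypoxia, was at 1037 and 631 CPM, 1.64-fold lower (1.52 to 1.78), but its log2 ratio was 0.13 among cells with at least 2% calprotectin, and it stayed past 1.5-fold in 7 of 15 alternatives. Vegfa, the vascular growth factor, was at 292 and 318 CPM.

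Iron handling, lipid mediators and transcription factors were level as lists. Of 17 oxidative stress and iron genes, 9 had a ratio over 1 with a median of 0.00. Hmox1, the heme oxygenase, was at 337 and 195 CPM, 1.73-fold lower (1.496 to 2.001), and was detected in 21.9% and 12.3% of cells at 1000 UMIs (37.7% and 20.7% unthinned) and 0.922% and 0.649% of B cells. Without cells that carried another lineage its log2 ratio was -0.17. The ferritin light chain Ftl1 was 1.23-fold lower (1.20 to 1.26). Of 9 eicosanoid genes, 4 had a ratio over 1 with a median of -0.09, with cyclooxygenase 2 (Ptgs2) at 1058 and 995 CPM. Of 15 granulocyte transcription factors 9 had a ratio over 1 (median 0.00).

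Of 14 matrix and vessel genes, 8 had a ratio over 1, with a median of 0.15, yet 4 were at least 1.5-fold lower in tumour (Prok2, the urokinase Plau, the neutrophil collagenase Mmp8 and the protease inhibitor Serpinb2) and 1, Thbs1, at least 1.5-fold higher. Without the top cell of each library the ratio was 0.903 for Mmp8 and 0.913 for Serpinb2, within 1.5-fold. The urokinase receptor Plaur was at 772 and 874 CPM, and the inhibitor Timp2 was 1.40-fold lower (1.20 to 1.63).

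By CPM of summed UMIs, MHC class II and co-stimulation genes were higher in tumour. Per cell at 1000 UMIs their sum had a median of 3 UMIs in both libraries, with means of 3.53 in adjacent and 3.73 in tumour. Of the tumour UMIs of this list, 1 cell held 10.3%. All 8 tested members had a ratio over 1 and 7 were past 1.5-fold, with a median of 0.90, which across the alternatives came down to 0.05. These genes serve antigen presentation and are highest in B cells, dendritic cells and macrophages. The invariant chain Cd74 was at 1625 and 2675 CPM, H2-Ab1 at 417 and 910.3. Gated levels of Cd74 were 0.0921 and 0.154 times those of other cells. At 1000 UMIs Cd74 was detected in 75.3% and 68% of gated cells (95.5% and 88.8% unthinned), lower in tumour, against 100% and 99.4% of B cells. H2-Ab1 was detected in 31.1% and 34.8% (61.5% and 55.9% unthinned), against 95.9% and 87.7%. Without the 5% of cells with the most UMIs the log2 ratios were -0.29 for Cd74 and -0.02 for H2-Ab1. All 3 dendritic cell markers that could be compared (Cd209a, Ccr7 and Fscn1) were past 1.5-fold higher in the same library. That list summed to only 31.8 CPM in adjacent gated cells, so its members could reach the 50-UMI minimum only with tumour UMIs. Their shared direction was therefore largely set by that minimum. A single tumour cell held 36.8% of the UMIs of that list, and Xcr1 and Zbtb46 were at 0 UMIs in adjacent cells. The part of other cells' RNA in the MHC class II difference was not tested. Cst3, an inhibitor of cathepsins that is abundant in macrophages and dendritic cells, followed the same pattern at 1154 and 2369 CPM, with detection at 1000 UMIs of 60% and 63.0% (86.3% and 81.9% unthinned) and of 29.5% and 29.2% in B cells, and a log2 ratio of 0.19 without the 5% of cells with the most UMIs.

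Interferon-induced genes were high in these cells, and by CPM most were a little lower in tumour. At 1000 UMIs per cell their sum was not lower, with means of 14.5 UMIs in adjacent and 14.8 in tumour. Of 27 tested, 5 had a ratio over 1 and 22 under 1, where 58.2% and 41.8% of all tested genes did, with a median of -0.20. Isg15, a ubiquitin-like modifier, was at 3109.6 and 2983 CPM and Rsad2 (viperin) at 2662 and 2658, both level. Ifit1, which binds foreign RNA, was at 1451 and 1048 CPM, 1.38-fold lower (1.30 to 1.48). Past 1.5-fold lower were Usp18, which removes Isg15 from proteins (186 and 118 CPM, 1.58-fold lower (1.30 to 1.92)), and the GTPase Gbp5 (26.4 and 11.7 CPM). Rsad2 was detected in 31.1% and 36.5% of cells at 1000 UMIs (38.0% and 41.6% unthinned), against 0.461% and 0.649% of B cells.

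The interferon genes were not spread evenly over the cells. Per cell thinned to 1000 UMIs, the list summed to a median of 3 UMIs in both libraries, while the highest 5% of cells held at least 71 and 65 UMIs and the highest cell 115 and 156. None was found in 20.6% and 17.2% of cells. Of reference B cells, the highest 5% held at least 2 UMIs in both libraries. A sum of at least 10 UMIs, a limit set after the values were seen, was reached by 101 of 360 (28.1%, 23.5 to 33.0) adjacent and 256 of 775 (33.0%, 29.7 to 36.5) tumour neutrophils, with 26 and 44 cells within 8 to 12 UMIs. The intervals of these shares overlap. This is a range of a score and not a cell type. Cells above the limit had a lower median calprotectin share, 3.78% against 5.56% in adjacent and 3.53% against 5.69% in tumour, and more UMIs, 3128 against 2667 and 2335.5 against 2166.

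Cells above that limit differed in some other genes too, and the genes named here were picked after their values were seen. The libraries did not always go the same way. Il23a was 3.34 times as high above the limit in adjacent and 0.374 times in tumour, and Retnlg 0.875 and 1.71 times. Cd274 was at 1099 CPM above and 130.1 below the limit in adjacent, 8.44 times, and at 681 and 109.8 CPM in tumour, 6.20 times. Ccl4, a chemokine for monocytes and T cells, was 3.54 and 3.53 times as high. Acod1, which makes itaconate, was 2.61 and 1.95 times as high and Upp1 2.68 and 2.43 times. Hilpda was 4.30 and 2.57 times as high. On the other side, Siglecf was at 0.139 (0.0367 to 0.373) and 0.403 (0.215 to 0.708) times its level in the cells below the limit. Mmp8 was at 0.201 (0.0629 to 0.498) times in adjacent. In tumour Mmp8 was at 0.588 (0.299 to 1.08) times, an interval that included 1. Both ratios were under 1 and their intervals overlapped, so the libraries were not shown to differ in this. Slpi was level at 1.05 and 0.978 times. Ifitm1, interferon-induced but outside the list, was at 1.07 and 0.713 times and so did not follow the interferon sum.

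The gated cells also varied along the calprotectin share that chose them. They were put into 4 bins of about equal size over both libraries, with limits at 1.99%, 4.84% and 10.0%, which held 103, 83, 89 and 104 adjacent and 193, 213, 207 and 192 tumour cells. Since CPM shares 1 total with calprotectin, these values are a description. The genes of the neutrophil identity list summed to 15103 CPM in the lowest bin and 31298 in the highest in adjacent, and to 13366 and 26808 in tumour. From the lowest to the highest bin, Retnlg, a member of that list picked after its values were seen, was at 445, 616, 703 and 4401 CPM in adjacent and 445, 624, 1569 and 3839.8 in tumour. Lcn2 (lipocalin 2, which withholds iron from bacteria), another member picked so, was at 136, 155, 238 and 987 and at 101, 188, 372 and 1066. Tnf and Ccl3 ran the other way. Tnf was at 1436, 408, 188 and 101 CPM in adjacent and 305, 244, 202 and 96.3 in tumour, so the libraries differed most in the bin with least calprotectin and were within counting error in the highest 2 bins. Ccl3 was at 9239.8, 4846, 2772 and 1219.9 and at 4464, 4033, 2343 and 1114, and Hilpda at 2559, 766, 399 and 175 and at 1114, 703, 451 and 165. For both the gap was widest in the lowest bin.

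Wfdc17, Ifitm1, Stfa2l1, Thbs1 and Cst3 each differed in 1 direction in all 4 bins. Wfdc17 was at 1029, 939, 1762 and 4441 CPM in adjacent and 334, 498, 605 and 1169 in tumour, and Ifitm1 at 962, 1573, 2603 and 4529 and 454, 779, 1186 and 1811. Stfa2l1 was at 117, 354, 722 and 1671 and 81.5, 301, 428 and 775. For these 3 the adjacent library was the higher in all 4 bins, and the levels were highest in the calprotectin-richest bin of both libraries. For Stfa2l1 the interval of the ratio included 1 in the lowest 2 bins. Thbs1 was the higher in tumour in all 4 bins, at 1486, 1838, 1505 and 1971 CPM in adjacent and 2407, 2797, 3307 and 3416 in tumour. Cst3 was at 1300.1, 1218, 1067 and 1024 and 4346, 2354, 1369 and 1144, a gap that was widest in the lowest bin, while in the highest the interval of the ratio included 1. Rsad2 kept no such direction. It was at 3541, 3765, 2308 and 1196 and 3589, 2659, 2648 and 1570.3, lowest in the calprotectin-richest cells of both libraries.

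**Figure D5:**
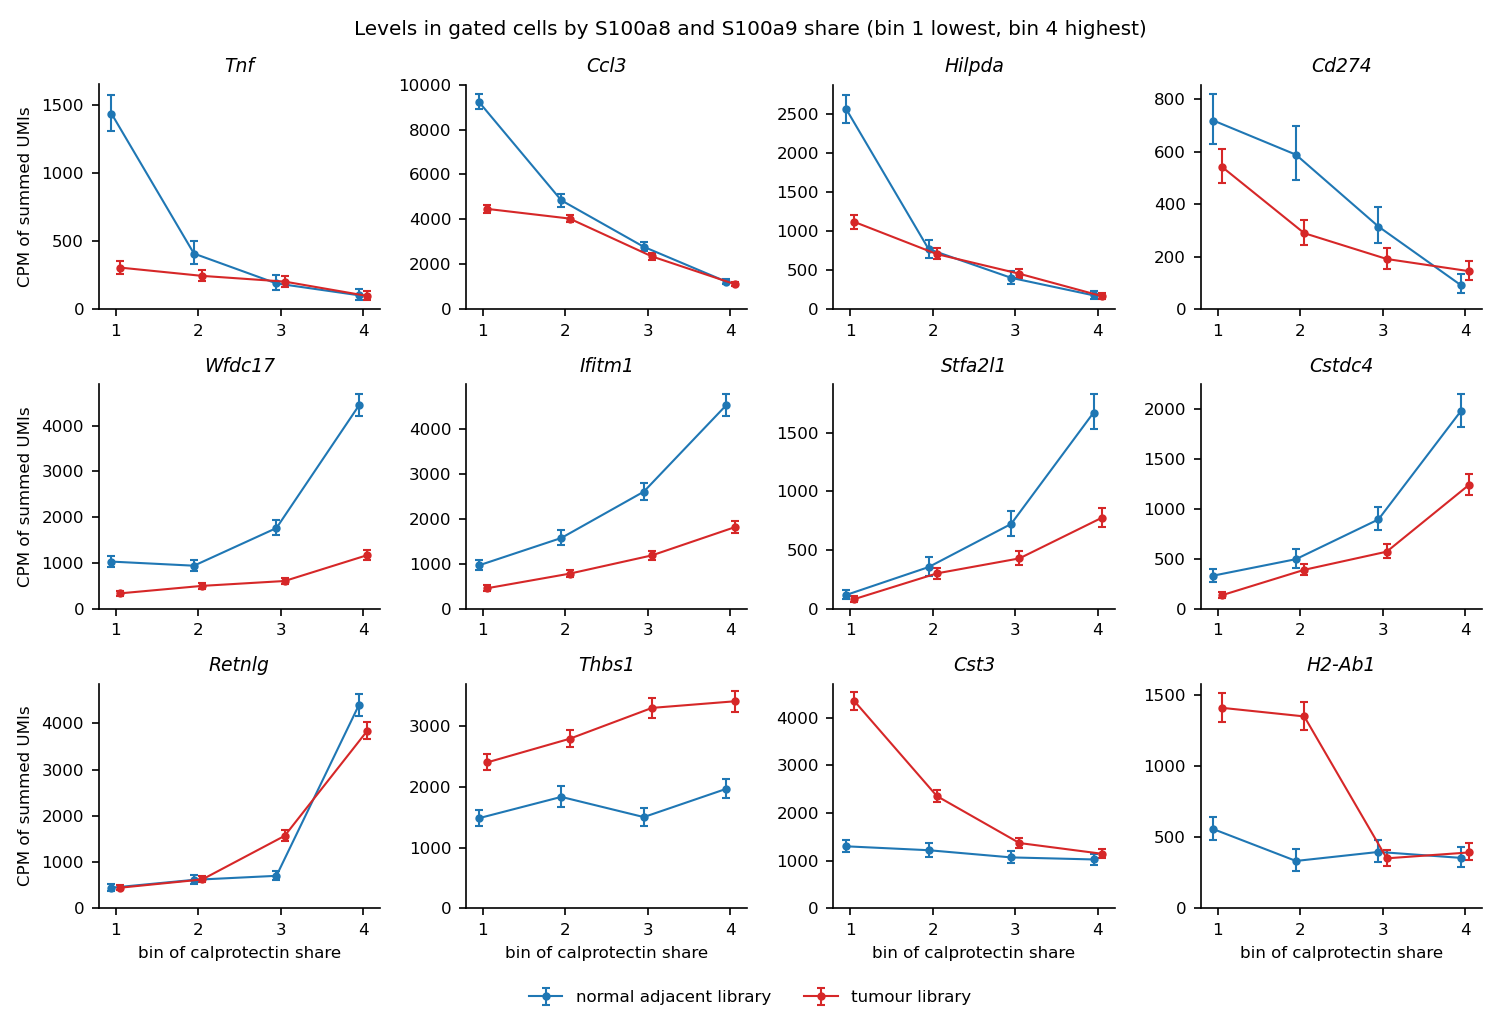
CPM of 12 genes in gated cells (points, with Poisson 95% intervals) in 4 bins of calprotectin share, from the least to the most, in the adjacent and the tumour library. Wfdc17, Ifitm1, Stfa2l1 and Cstdc4 lie higher in the adjacent library in all 4 bins and Thbs1 in the tumour library, while Tnf, Ccl3 and Hilpda differ most in the lowest bin and Cst3 and H2-Ab1 exceed the adjacent level mainly in the lower bins.

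Depth per cell also differed between the libraries, so the same genes were read in 4 bins of UMIs per cell, with limits at 1867, 2325.5 and 2873.5 UMIs. Ifitm1 was at 2872, 2373, 2934 and 2207 CPM in adjacent and 1195, 1218, 1198 and 614 in tumour from the shallowest to the deepest bin, and Wfdc17 at 2160.1, 1779.8, 2918 and 1845 and 861, 630.4, 626 and 503. Both were lower in tumour in all 4 bins. Tnf was at 245, 148, 232 and 812 CPM in adjacent and 169.9, 128, 243 and 296 in tumour, so that most of its gap lay in the deepest bin, which held 167 of the 379 adjacent and 129 of the 805 tumour cells. Cst3 was at 1632, 1038, 1447 and 1003 and 1374, 1506, 1369 and 4469, with most of the tumour excess in the deepest bin.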

How the data were processed

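Droplet single-cell RNA sequencing measured 2 libraries of mouse prostate cells. The files deposited by the authors are matrices of unnormalized UMI counts, and their headers name Cell Ranger 4.0.0. The submitters' processing notes also list R 4.0.3, Seurat 3.2.2 and GRCh38, which is human, although the features are all murine. The build used for mapping is not given in the sources used. Ambient RNA adds UMIs of other cells, which is why levels in reference B cells stand beside shares of cells.

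Barcodes with at least 200 genes and at most 20% mitochondrial UMIs were kept, and the gate was applied as described. No doublet caller was run; the gate's limits and an alternative without cells holding 3 or more UMIs of another lineage stand in. UMI counts were summed per library, with Poisson intervals for CPM, conditional binomial intervals for ratios, Clopper-Pearson intervals for shares and Newcombe intervals for their differences, all at 95%. Log2 ratios have 0.5 UMIs added. The ratio intervals were checked on simulated Poisson counts, which held no variation between cells. Tools were Python 3.11.15, NumPy 2.4.6, SciPy 1.17.1, pandas 2.3.3 and matplotlib 3.10.9.

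Genes were eligible to be named with 50 or more UMIs, 50 or more CPM in the library where they were higher and 25% or more of the level of other cells there. The 12 whose interval lay farthest from 1 in each direction are named. Mitochondrial, ribosomal protein, haemoglobin, immunoglobulin, T cell receptor, sex-linked and clone-named genes and the genes of the gate were left out. The 15 marker genes have at least 100 CPM in both libraries and were ranked by the lower ratio to other cells. The gated cells, the 20 functional lists and the 11 lists of other lineages were chosen with earlier results of these data known. The files hold 402 of the 404 list genes. Clec7a and Mx1 were not analysed here, and values of some other genes are not reported. Alternatives changed the gate, the cell filters, depth, scaling and the UMI minimum. Those leaving out each gene's top cell or lifting the gate's limits were added after seeing the data.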

Additional observations from a re-analysis of the deposited data

Results flagged for a closer look

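For 3 genes the tumour to adjacent ratio in gated neutrophils pointed the other way from that in all other filtered cells, which is why they are listed, and the difference was not tested. Prok2, a chemotactic peptide of granulocytes, had a ratio of 0.188 in gated and 2.16 in other cells, and 1 adjacent cell held 165 of its 291 adjacent UMIs. Without the top cell of each library the gated ratio of Prok2 was 0.299, in the same direction. Few cells carried it, since Prok2 was detected in 18 adjacent and 23 tumour gated cells. Among the calprotectin-rich cells that failed a limit its ratio was 3.66, higher in tumour. With the C1q, CD3 and Cd79a limits lifted its log2 ratio was 0.22, so its direction depended on those limits. Ccl5, a chemokine of T and NK cells, had a ratio of 1.88 in gated and 0.657 in other cells, and 1 tumour cell held 580 of its 1012 tumour UMIs. Without the top cells the gated ratio of Ccl5 was 0.864 (0.741 to 1.01), below 1 as in other cells. Spink1, a secreted protease inhibitor of epithelium, had a ratio of 2.32 in gated and 0.463 in other cells, and 1 tumour cell held 959 of its 1190 tumour UMIs. Without the top cells the gated ratio of Spink1 was 0.515 (0.429 to 0.618), below 1 as in other cells.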

How the results depend on the processing

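Of 52 single genes followed, 38 kept their direction in all 15 alternatives, among them Wfdc17, Ifitm1, Upp1, Stfa2l1, Cstdc4 and Thbs1. Of 20 lists, 7 kept theirs. The 52 include the leading genes of each direction, picked for their ratios in these same cells, which makes a kept direction likely. Of the 52, 40 were past 1.5-fold, and 30 of these kept their direction. The share of all tested genes that did so is not given here, so the count has no baseline. The difference in gated share was 2.53 points of filtered and 2.79 of immune cells with 0 UMIs of C1q required, 1.26 and 1.45 without cells carrying another lineage, and 8.07 and 9.04 with the C1q, CD3 and Cd79a limits lifted. Genes past 1.5-fold numbered 240 higher and 113 lower with 0 UMIs of C1q, 143 and 104 after thinning, 960 and 506 at a minimum of 20 UMIs, and 66 and 48 at 200 UMIs. The higher count was 175 without cells carrying another lineage, 183 without the 5% of cells with most UMIs and 248 as a mean of cells. The lower count was 109 at a calprotectin share of at least 2% and 297 with the limits lifted. Fewer or more genes and cells enter by construction; otherwise the cause was not tested.

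Log2 ratios of genes past 1.5-fold that changed sign were, for Ccr7, -1.20 at a share of at least 2%, -1.70 without the 5% of cells with most UMIs, -0.87 thinned and -0.54 as a mean of cells. For Cd74 they were -0.31 with 0 UMIs of C1q, -0.16 without cells carrying another lineage, -0.29 without the 5% of cells with most UMIs, -0.066 thinned, -0.17 as a mean of cells and -0.050 with limits lifted. At a share of at least 2%, Tbc1d4 was at -0.00044, Hilpda at 0.13 and Il1a at 0.017. With 0 UMIs of C1q, Ccl17 was at -1.88 and Ddit3 at 0.059. Krt14 was at -0.081 without cells carrying another lineage, H2-Ab1 at -0.024 without the 5% of cells with most UMIs and Prok2 at 0.22 with limits lifted. Of genes within 1.5-fold, Il1b, Retnlg, Rsad2 and Slc7a11 kept their sign in 11, 8, 5 and 13 of 15 alternatives and reached 0.15, 0.43, 0.31 and 0.12.

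No paired analysis was possible because each group has 1 library, and for the same reason none was left out. Animal and tissue cannot be told apart. Genes under 50 UMIs were too shallow to compare.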
